A study of Mus musculus with 52 samples.

Results

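The 10 mouse genes of 2 lytic cell-death programs described here were measured in bulk RNA-seq of subcutaneous KPC pancreatic tumors. They are Ripk1, Ripk3, Zbp1, Mlkl, Casp8 and Fadd of the necroptosis pathway, and Nlrp3, Casp1, Casp4 and Gsdmd of the pyroptosis pathway. They were taken by gene symbol from the 27525 genes of the deposited table of 32 tumors, and all 10 were found there. The genes were chosen by their measured levels in these 4 groups, including the interaction of the 2 agents. Their values in these 32 tumors are therefore a description. Whether a gene passed the threshold of the fit across all genes is given beside the share of all genes that did, and since the same values chose the genes, it is no independent test of them.

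KPC (KxPxCx) cells derive from a pancreatic tumor of a mouse in which Pdx1-Cre switches on engineered oncogenic alleles in the pancreas, and were injected under the skin of male C57BL/6NHsd mice aged 8 to 10 weeks. In the first experiment 8 tumors each were left untreated, received 1 intratumoral dose of 2 µg of the STING agonist ADU-S100, were given the agonistic anti-LTβR antibody 4H8 into the peritoneum (100 µg, 4 doses), or received both agents (combination). All were resected on day 14, so 1 time point was measured, and all groups carry the same implanted line. A second experiment holds 20 libraries under 4 letters, 5 for each. Its sample descriptions name letter A as control, B as ADU-S100, C as anti-LTβR and D as combination, while the treatment field says combination for all 20, so these libraries are called by their letters.

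Necroptosis and pyroptosis both end in rupture of the plasma membrane and release of inflammatory cell contents. In necroptosis the kinases RIPK1 and RIPK3, or the nucleic acid sensor ZBP1, join through their RHIM domains, RIPK3 phosphorylates the pseudokinase MLKL, and MLKL permeabilizes the membrane, whereas caspase-8 with its adaptor FADD cleaves the kinases and holds the program back. In pyroptosis an inflammasome sensor such as NLRP3 activates caspase-1, or caspase-4 (the mouse caspase-11) binds bacterial lipopolysaccharide directly, and either caspase cleaves gasdermin D into a fragment that forms membrane pores. Several of these genes are known to be induced by interferon or NF-κB, and myeloid cells are known as a rich source of the inflammasome components.

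Values are normalized counts, that is, the reads of a gene after division by the size factor of its library, as the authors deposited them. Whole reads recovered from a larger deposited table of 52 libraries numbered 12762453 to 15591986 per library in the first experiment and 8716257 to 18821792 in the second. In the second experiment 3 libraries stood apart, namely letter C replicate 3 and letter D replicates 3 and 5, with normalized totals above 16000000. Markers of other tissues were present in the tumors. Summed skeletal muscle markers ran from 4211 to 264834 normalized counts over the 4 groups and summed keratinocyte markers from 1105 to 43149. All epithelial, fibroblast, macrophage and T cell markers found in the table were detected in every group. In bulk tumors a change in the number of cells of a type and a change in RNA per cell cannot be told apart.

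Differences between groups were fitted with limma, with its trend option, on log2(normalized count + 1), and a gene was called at an adjusted p-value below 0.05, adjusted over all genes tested. Fold changes below are on this log2 scale, with the SE of the fit. All 10 genes passed the filter on low values in every comparison. Between combination and untreated tumors 6 of the 10 were called, all 6 higher (Ripk3, Casp4, Nlrp3, Zbp1, Gsdmd and Casp1), where 19.6% of 16909 genes were called higher and 23.6% lower. The median log2 fold change of the 10 was 0.27, against a median of -0.02 over all genes tested. Between anti-LTβR and untreated tumors 2 were called higher (Zbp1 and Casp4), where 7.21% of genes were called higher and 8.1% lower. Casp4 was not called there with edgeR, with no filter, with the replicate block or in the libraries above 14000000 reads. Between ADU-S100 and untreated tumors limma called none of the 10 and 0% of 16613 genes, although 2408 genes had an unadjusted p below 0.05, edgeR called 1 gene and DESeq2 called 57. Combination tumors stood above anti-LTβR tumors in 2 of the 10 (Ripk3 and Nlrp3; background 11.3% higher and 15.3% lower; Nlrp3 was not called in the libraries above 14000000 reads) and above ADU-S100 tumors in 6 (Ripk3, Casp4, Nlrp3, Zbp1, Gsdmd and Casp8; background 20.2% higher and 26% lower). The interaction of the agents, which is the ADU-S100 effect in tumors that also received anti-LTβR minus that effect without it, was called for 2, Ripk3 and Casp8, both positive (background 7.33% positive and 11% negative). No member was called lower anywhere, and none of the calls reached a 2-fold change. The comparisons against untreated tumors share the same 8 control tumors, and those of combination tumors share the same 8 treated ones. Against ADU-S100 tumors the count of the 10 was 7 with edgeR, DESeq2 and a joint fit, which added Casp1, and 5 with no filter or with the replicate block, both without Zbp1. It was 4 in the libraries above 14000000 reads, without Zbp1 and Nlrp3. That limit leaves out combination tumor 5, which held 13379440 reads, among other libraries. The balance of higher and lower calls over all genes differed with edgeR on recovered reads, an alternative that changes the model, the input and the scaling together. With it, combination against anti-LTβR gave 2087 genes higher and 1742 lower, in place of 1917 and 2587, and the interaction gave 1433 and 1471, in place of 1293 and 1947. Combination against ADU-S100 gave 3564 and 3352, in place of 3391 and 4368.

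**Figure D1:**
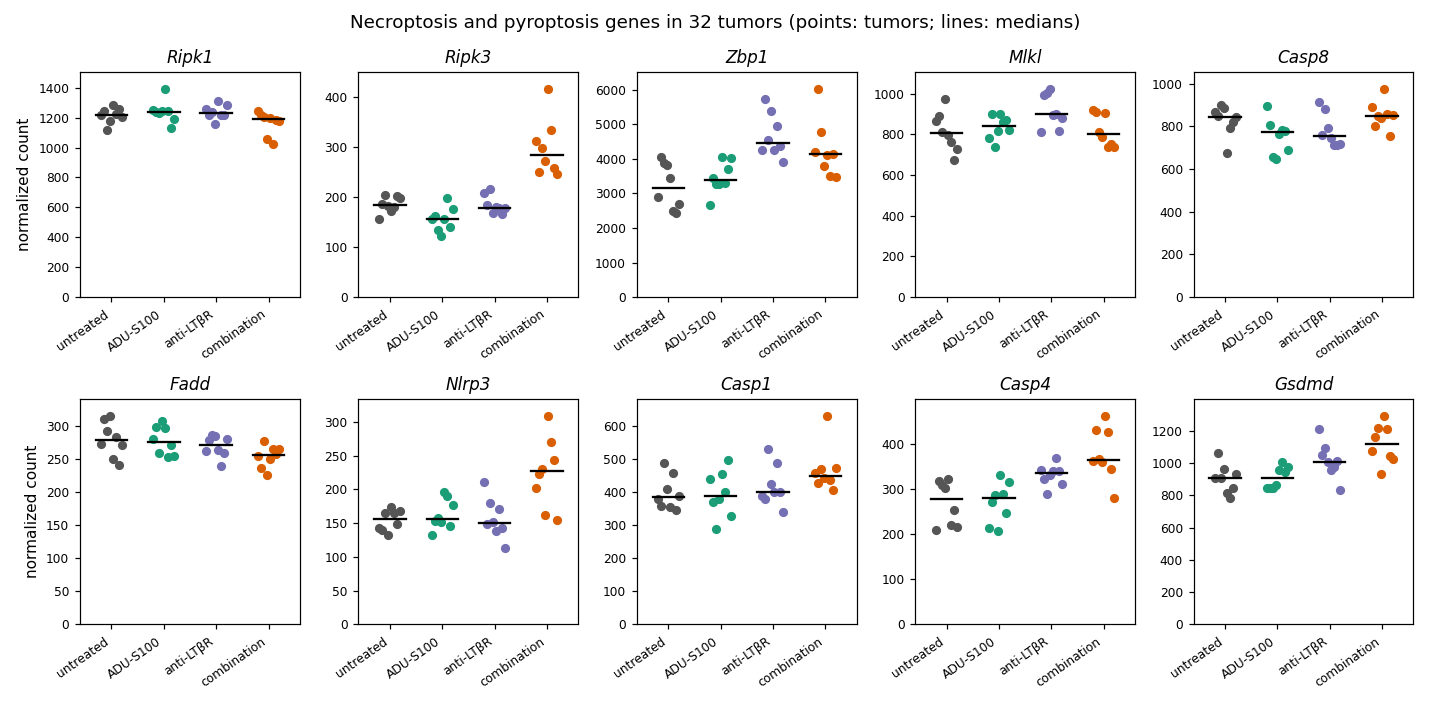
Normalized counts of the 10 genes in each of the 32 tumors, 1 panel per gene, with the groups on the horizontal axis, 1 point per tumor, a line at the group median and each vertical axis starting at 0. The 8 combination tumors sit at 246 to 418 for Ripk3, above all 24 other tumors, while the groups overlap for Ripk1, Mlkl and Fadd.

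Ripk3, the kinase that activates MLKL, showed the widest separation of the 10. It lies on the minus strand of chromosome 14 (chr14:55784995-55788865, GRCm38) and overlaps no other annotated gene. Untreated tumors ran from 156 to 205 normalized counts (median 185) and anti-LTβR tumors from 167 to 217 (median 179). ADU-S100 tumors ran from 121 to 197 (median 156), and 5 of the 8 lay below every untreated tumor. Combination tumors ran from 246 to 418 (median 285). All 8 combination tumors lay above all 24 others, whose highest value was 217. Of the genes tested 4.64% had all 8 combination tumors above every untreated tumor, and 0.881% had all 8 above every one of the 24 others. The fitted differences from untreated tumors were -0.26 (SE 0.09) for ADU-S100, 0.00 (SE 0.07) for anti-LTβR and 0.67 (SE 0.10) for combination tumors. The interaction was 0.93 (SE 0.14), so the difference of the combination group exceeded the sum of the 2 single-agent differences on the log2 scale.

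The promoter windows of RefSeq (GRCm38.p6, 250 bases before to 50 after the annotated start) are shown for Ripk3 and Casp4, which were higher in combination tumors, and for Ripk1, which was not called in any comparison, because the windows differ in the letters they hold. Windows were listed for 8 of the 10 genes, 11 windows in all, without Zbp1 and Gsdmd. For Casp4 the first of its windows is printed and for Ripk1 the second. Capitals mark matches, on either strand, to the interferon-response core GAAANNGAA, the STAT site TTCNNNGAA or the NF-κB motif GGGNNTTTC.
Ripk3, chr14:55788808-55789107, minus strand: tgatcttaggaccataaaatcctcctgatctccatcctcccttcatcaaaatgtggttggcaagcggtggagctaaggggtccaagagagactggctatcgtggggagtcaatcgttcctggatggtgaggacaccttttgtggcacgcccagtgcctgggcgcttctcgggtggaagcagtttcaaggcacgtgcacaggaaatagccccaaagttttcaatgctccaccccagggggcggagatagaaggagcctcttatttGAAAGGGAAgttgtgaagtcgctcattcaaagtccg
Casp4, chr9:5308599-5308898, plus strand: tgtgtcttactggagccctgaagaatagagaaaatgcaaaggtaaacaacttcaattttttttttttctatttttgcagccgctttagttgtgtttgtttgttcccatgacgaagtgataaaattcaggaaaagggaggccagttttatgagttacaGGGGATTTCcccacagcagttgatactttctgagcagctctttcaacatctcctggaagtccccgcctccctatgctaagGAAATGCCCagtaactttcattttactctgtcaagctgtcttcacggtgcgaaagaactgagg
Ripk1, chr13:34002624-34002923, plus strand: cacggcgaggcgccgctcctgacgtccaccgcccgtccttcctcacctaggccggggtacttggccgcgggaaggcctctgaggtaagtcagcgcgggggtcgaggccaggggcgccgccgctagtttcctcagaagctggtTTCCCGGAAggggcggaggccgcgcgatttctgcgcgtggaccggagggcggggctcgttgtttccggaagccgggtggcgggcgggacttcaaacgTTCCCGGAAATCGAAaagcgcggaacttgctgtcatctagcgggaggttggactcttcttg
The Ripk3 window holds 1 interferon-response core, from 14 to 22 bases after the start site, counting the start base as 0. The Casp4 window holds 2 NF-κB motifs, the first from 93 to 85 and the second from 13 to 5 bases before the start. The second window of Ripk1 holds 1 interferon-response core and 2 STAT sites, and the core overlaps the STAT site that begins 11 bases before the start. Over 32851 mouse promoter windows of the same length 8.56% hold the interferon-response core, 8.30% the STAT site and 4.36% the NF-κB motif. None of the 3 patterns was found in the windows of Casp8, Fadd, Mlkl, Casp1 or Nlrp3, or in the first window of Ripk1. A match is a match of letters only.

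Ripk1, the kinase that joins death receptor signaling to RIPK3, varied little. Medians were 1219.9, 1240.0, 1230.2 and 1189 for the untreated, ADU-S100, anti-LTβR and combination groups, and the combination tumors (1023 to 1242) overlapped the untreated ones (1116 to 1285). The combination difference was -0.07 (SE 0.05) and the interaction -0.12 (SE 0.06). On chromosome 13 (chr13:34002363-34037147) Ripk1 overlaps Serpinb6a on the opposite strand and 2 pseudogenes.

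Zbp1, the sensor that engages RIPK3 through its RHIM domains, was higher in both groups that received anti-LTβR. Untreated tumors ran from 2437 to 4043 normalized counts (median 3166) and ADU-S100 tumors from 2665 to 4048 (median 3381). Anti-LTβR tumors ran from 3901 to 5734 (median 4472), with 7 of 8 above every untreated tumor. Combination tumors ran from 3472 to 6041 (median 4142), with 5 of 8 above every untreated tumor. The differences from untreated tumors were 0.13 (SE 0.12), 0.56 (SE 0.12) and 0.41 (SE 0.13) in the order ADU-S100, anti-LTβR and combination. The interaction was -0.27 (SE 0.16), opposite in sign to that of Ripk3, and was not called. Zbp1 lies at chr2:173206612-173218923 on the minus strand.

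Mlkl is the executioner of necroptosis. Its medians were 806, 841, 899 and 800.1 for the untreated, ADU-S100, anti-LTβR and combination groups. Combination tumors (738 to 921) lay within the range of untreated tumors (674 to 974), with a difference of 0.02 (SE 0.08). In anti-LTβR tumors (813 to 1026) 3 of 8 lay above every untreated tumor, with a difference of 0.17 (SE 0.07) that was not called. The gene lies at chr8:111311797-111338177 on the minus strand.

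Casp8, the protease that cleaves RIPK1 and RIPK3, was called for the interaction although combination tumors (752 to 977) overlapped untreated ones (673 to 899). Medians were 844, 772, 752 and 849 for the untreated, ADU-S100, anti-LTβR and combination groups. The fitted difference from untreated tumors was -0.14 (SE 0.07) for ADU-S100 and -0.09 (SE 0.07) for anti-LTβR, and neither was called. The combination difference was 0.04 (SE 0.06) and the interaction 0.27 (SE 0.10). The interaction was not called with no filter, in the libraries above 14000000 reads (0.27), or without combination tumor 5 (0.24). Fadd, the adaptor of caspase-8, had medians of 279, 276, 272 and 256 in the order untreated, ADU-S100, anti-LTβR and combination, and all 8 combination tumors lay below the untreated median. Its combination difference of -0.14 (SE 0.07) was not called. Casp8 lies on chromosome 1 (chr1:58795374-58847503) and Fadd on chromosome 7 (chr7:144577318-144582463), where an antisense gene overlaps it.

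Nlrp3, the inflammasome sensor, had a higher median in combination tumors than in the other 3 groups. Untreated tumors ran from 133 to 174 (median 156) and ADU-S100 tumors from 132 to 196 (median 156). Anti-LTβR tumors ran from 113 to 210.3 (median 150.5). Combination tumors ran from 154 to 309 (median 227), and 5 of 8 lay above all 24 others. The 3 lowest combination tumors overlapped the other groups. The combination difference was 0.51 (SE 0.13) and the interaction 0.43 (SE 0.17), which was not called. The difference from anti-LTβR tumors was 0.50 (SE 0.15), and in the libraries above 14000000 reads, which leave out combination tumor 5, it was 0.26 and no longer called. Nlrp3 lies at chr11:59541568-59566956.

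Casp1 and Casp4 lie side by side on chromosome 9 on the plus strand (chr9:5298517-5307265 and chr9:5308828-5336783), 1563 bases apart. Casp1, the caspase that cleaves pro-IL-1β and gasdermin D, had a median of 385 in untreated tumors (348 to 488) and of 450.4 in combination tumors (408 to 632). All 8 combination tumors lay above the untreated median, but 1 only, tumor 5, lay above every untreated tumor. The difference was 0.23 (SE 0.09), and without that tumor it was 0.17 and no longer called. Casp4, the sensor of cytosolic lipopolysaccharide, had a median of 278 in untreated tumors (208 to 322) and of 279 in ADU-S100 tumors (207 to 332). Its median was 336 with anti-LTβR (289.7 to 368) and 364 with both agents (279 to 463). Of the combination tumors 7 lay above every untreated tumor, and of the anti-LTβR tumors 6 did. The differences from untreated tumors were 0.01 (SE 0.12), 0.32 (SE 0.10) and 0.50 (SE 0.12) in the order ADU-S100, anti-LTβR and combination.

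Gsdmd, the pore-forming protein cut by both caspases, was higher in combination tumors. Medians were 907, 905, 1010.1 and 1118 for the untreated, ADU-S100, anti-LTβR and combination groups. Combination tumors ran from 933 to 1294, and 5 of 8 lay above the highest untreated tumor at 1065. The combination difference was 0.31 (SE 0.07), that of anti-LTβR 0.17 (SE 0.07) and that of ADU-S100 0.02 (SE 0.06), and the last 2 were not called. The interaction was 0.12 (SE 0.10). Gsdmd lies at chr15:75862327-75867408 on the plus strand and overlaps no other annotated gene.

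**Figure D2:**
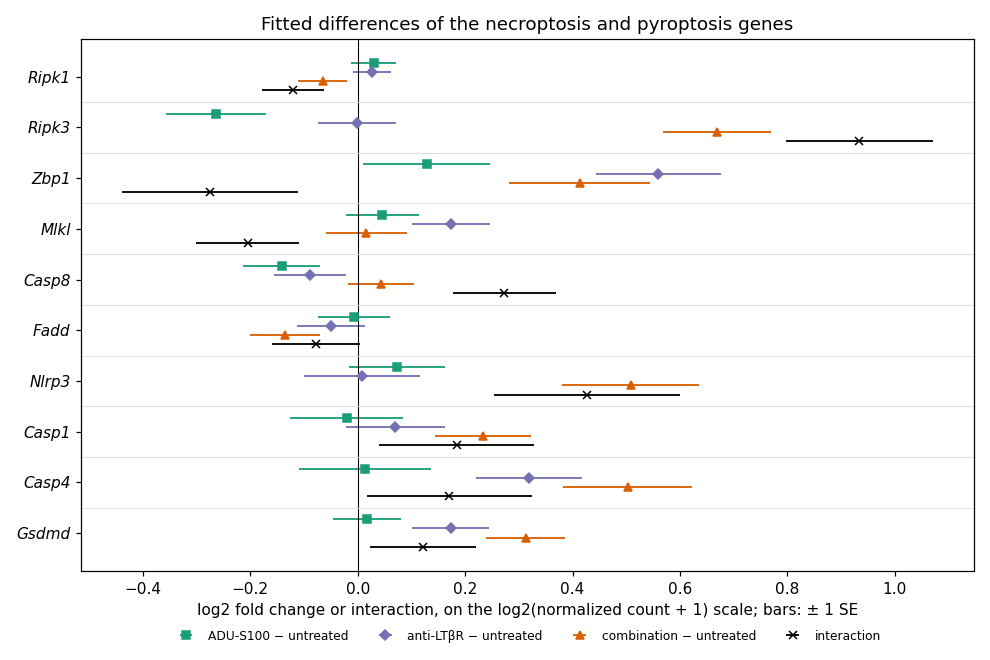
Fitted log2 differences of the 10 genes from untreated tumors and the interaction of the agents (horizontal axis, log2 scale) for each gene (vertical axis), with bars of 1 SE. Ripk3 has the largest combination difference (0.67) and interaction (0.93), Zbp1 has its largest difference with anti-LTβR alone (0.56), and Ripk1, Mlkl and Fadd stay within 0.21 of 0 throughout.

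A single combination tumor held many of the highest values. Combination tumor 5 had the highest value of the 8 combination tumors for 6 of the 10 genes (Ripk3, Casp8, Gsdmd, Casp1, Casp4 and Nlrp3), and for those 6 it was also the highest of all 32 tumors. How many of all genes had their highest value there was not counted. With this tumor left out, 5 of the 10 genes were called higher between combination and untreated tumors, where 3104 of 17019 genes were called higher. Between combination and ADU-S100 tumors 4 were called higher, where 3108 of 16910 genes were. The interaction was called positive for 1, where it was for 959 of 17758 genes. Ripk3 was called in all of these, at 0.60 (SE 0.08) against untreated tumors and with an interaction of 0.86 (SE 0.12).

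Markers of several cell types moved with the combination group. The 6 fibroblast markers summed to 61242 to 97735 normalized counts in untreated tumors, 41679 to 117505 with ADU-S100, 48346 to 102333 with anti-LTβR and 103262 to 378020 with both agents, and 6 of 6 were called higher in combination than in untreated tumors. Of the 8 macrophage markers 4 were called higher and 0 lower, and their sum ran from 19250 to 34063 in untreated and 25455 to 38584 in combination tumors. All 6 T cell, all 3 endothelial and 3 of 4 B cell markers were called higher. Of the 6 epithelial markers 4 were called lower, with sums of 16056 to 29267 in untreated and 6882 to 14787 in combination tumors. Of the 8 interferon-stimulated genes 1 was called higher, and their sum was highest in anti-LTβR tumors, at a median of 23463 against 17768 in untreated and 20423 in combination tumors. No marker of these lists was at 0 in a whole group. The part of these cell types in the differences above was not tested.

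Single tumors of 1 group also differed together. After group means were removed from log2 values, Ripk3 followed the mean of the fibroblast markers over the 32 tumors (r = 0.72), with r from 0.48 to 0.84 within the 4 groups of 8. It also followed the endothelial markers (r = 0.57), but not in each group, with r = 0.84 in ADU-S100, 0.77 in combination, 0.46 in untreated and -0.33 in anti-LTβR tumors. Nlrp3 followed Ptprc (r = 0.68), the gene of the leukocyte antigen CD45, and the macrophage markers (r = 0.64), with r of 0.30, 0.45, 0.81 and 0.96 for the latter within the untreated, ADU-S100, anti-LTβR and combination groups. Gsdmd followed the macrophage markers as well (r = 0.58). Zbp1 and Mlkl followed the interferon-stimulated genes (r = 0.82 and 0.69). Negative values beyond -0.5 were found for Casp8 with the skeletal muscle markers (r = -0.59, and from -0.90 to -0.27 within the groups), Zbp1 with the adipocyte markers (r = -0.53) and Casp4 with the epithelial markers (r = -0.50). Among the 45 pairs of the 10 genes the median r was 0.21. The highest was that of Mlkl with Zbp1 (0.68), then Gsdmd with Nlrp3 (0.61), Zbp1 with Casp4 (0.60) and Ripk3 with Nlrp3 (0.59), while Ripk3 and Mlkl are not among the 7 pairs above 0.5. These are descriptions over tumors that share a library and its size factor for both values.

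**Figure D3:**
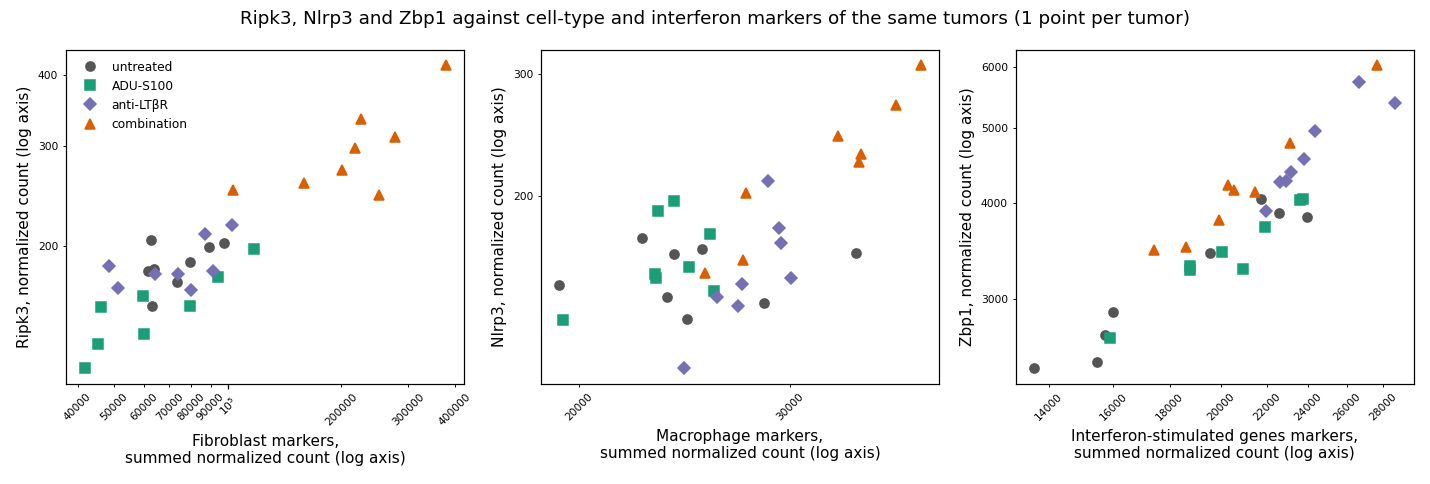
Ripk3 against summed fibroblast markers, Nlrp3 against summed macrophage markers and Zbp1 against summed interferon-stimulated genes, 1 point per tumor with a symbol and color for each of the 4 groups, all axes being normalized counts on log scales. Combination tumor 5 is the point at 418 for Ripk3 with fibroblast markers summing to 378020, and the Zbp1 points of all groups run along 1 band.

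Other genes of these pathways, none of which served to select the 10, were tested in the same fits from 6 lists holding 67 genes. The lists were drawn up with earlier results of these data known, so their shares beside those of all genes are a description and no independent test. Of the 60 that passed the filter between combination and untreated tumors, limma called 24 higher (40%) and 10 lower (16.7%), beside 19.6% and 23.6% of all genes tested. Between anti-LTβR and untreated tumors 15 of 59 were called higher (25.4%) and 2 lower (3.39%), beside 7.21% and 8.1% of all genes, and between ADU-S100 and untreated tumors 0. The interaction was positive for 6 of 60 (10%) and negative for 7 (11.7%), near the 7.33% and 11% of all genes. Between combination and anti-LTβR tumors 9 of 59 were called higher (15.3%) and 10 lower (16.9%), beside 11.3% and 15.3% of all genes. Without combination tumor 5 that comparison called 12 list genes in place of 19, and 3462 of all genes in place of 4504.

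All 3 death receptor ligands rose in combination tumors (median log2 difference 0.98). Tnf, the ligand of TNFR1, ran from 48.1 to 108 normalized counts in untreated tumors (median 77.7), 47.1 to 113 in ADU-S100 tumors (median 71.6), 69.8 to 147 with anti-LTβR and 106 to 349.9 with both agents (median 195). Its combination difference was 1.29 (SE 0.21, limma adjusted p = 0.000214) and its interaction 1.00 (SE 0.31, adjusted p = 0.0262). Tnfsf10, which encodes TRAIL, rose by 0.98 in combination tumors (SE 0.18, adjusted p = 0.00039) and by 0.99 in anti-LTβR tumors (SE 0.17, adjusted p = 0.0025). Fasl rose by 0.86 in combination tumors (SE 0.21, adjusted p = 0.0032).

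Of 19 genes of the death receptor and RHIM complexes 6 rose and 1 fell between combination and untreated tumors (median 0.04). Birc3, the ubiquitin ligase cIAP2 that marks RIPK1, ran from 281 to 387 in untreated and 449.7 to 649 in combination tumors with no overlap, a difference of 0.65 (SE 0.08, limma adjusted p = 1.82e-05) and an interaction of 0.44 (SE 0.13, adjusted p = 0.0143). Birc2, its relative cIAP1, rose by 0.24 (adjusted p = 0.00046). Tnfaip3, the ubiquitin-editing enzyme A20, rose by 0.46 (adjusted p = 0.00073). The gene that fell was Tnfrsf10b, the TRAIL receptor, at -0.16 (adjusted p = 0.04), a call lost in 8 of the 9 alternatives run. The interaction was negative for 5 genes of this list. Among them were Ikbkg, which encodes NEMO, at -0.44 (SE 0.10, adjusted p = 0.00266), and Cflar, the caspase-8 inhibitor c-FLIP, at -0.32 (SE 0.07, adjusted p = 0.002).

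Of 11 inflammasome sensors and adaptors 10 were tested, of which 8 rose and 1 fell between combination and untreated tumors (median 0.62). The DNA sensor gene Aim2 ran from 89.9 to 127 in untreated tumors and 136 to 189 in combination tumors with no overlap (difference 0.73, SE 0.10, limma adjusted p = 4.14e-05). Nlrp1b, another inflammasome sensor, rose by 0.98 (SE 0.17, adjusted p = 0.000305) and Naip6, which belongs to the receptors for bacterial proteins, by 0.76 (SE 0.11, adjusted p = 0.0001). Pycard, the adaptor ASC, had medians of 185, 153, 168 and 234 for the untreated, ADU-S100, anti-LTβR and combination groups. Its interaction was positive at 0.70 (SE 0.17, adjusted p = 0.00511), as was that of Mefv, which encodes pyrin, at 0.64 (SE 0.22, adjusted p = 0.0389). Nek7, the kinase that NLRP3 needs for assembly, fell by 0.34 (SE 0.05, adjusted p = 0.000163), with an interaction of -0.28 (SE 0.08, adjusted p = 0.013). Naip2, Naip5 and Naip6 are close paralogs among which reads could be split.

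Of the other gasdermins and Ninj1, 4 of 10 were tested between combination and untreated tumors, of which Gsdme and Ninj1 rose. Ninj1, which encodes the protein that ruptures the membrane after pore formation, rose by 0.32 (SE 0.12, limma adjusted p = 0.038), and Gsdme, another pore-forming gasdermin, by 0.35 (SE 0.14, adjusted p = 0.0495). Neither was called without combination tumor 5. Gsdmc had an interaction of 4.78 (SE 1.63, adjusted p = 0.039) at levels that ran from 1.93 to 246 in combination and 0 to 214 in ADU-S100 tumors, and this call was lost in 5 of 8 alternatives run. Of 6 inflammasome cytokines and antagonists 3 rose in combination tumors. These were Il18bp, the IL-18 antagonist, by 0.90 (SE 0.20, adjusted p = 0.0018), Il1a by 0.67 (SE 0.22, adjusted p = 0.021), and the IL-1 receptor antagonist Il1rn by 0.41 (SE 0.15, adjusted p = 0.036). Il1b and Il18, the substrates of caspase-1, which are named here after their values were seen, stood at -0.06 and -0.13 and were not called.

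Of the 18 apoptosis genes 2 were called higher, 8 lower and 8 neither between combination and untreated tumors (median -0.15), where 19.6% of all genes were called higher and 23.6% lower. Apaf1, the scaffold of the apoptosome, rose by 0.49 (SE 0.07, limma adjusted p = 9.3e-05). The BH3-only genes Pmaip1 (NOXA) and Bbc3 (PUMA), which are p53 targets, fell, at -0.84 (SE 0.13, adjusted p = 0.00015) and -0.64 (SE 0.11, adjusted p = 0.00036). For Xiap, an inhibitor of caspases, the interaction was negative at -0.35 (SE 0.11, adjusted p = 0.022).

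**Figure D4:**
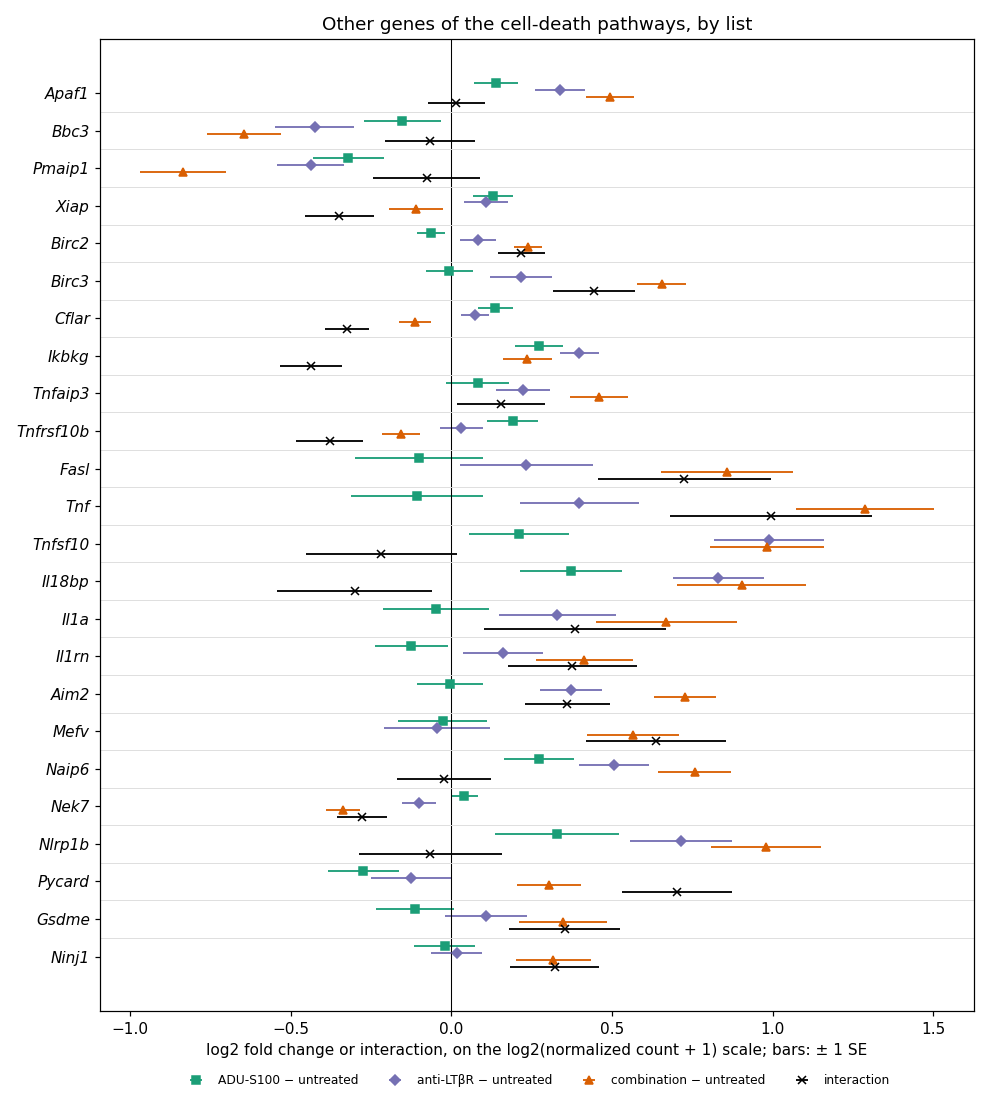
Fitted log2 differences from untreated tumors and the interaction of the agents (horizontal axis, log2 scale, bars of 1 SE) for 24 list genes outside the 10, ordered by list on the vertical axis. Tnf reaches 1.29 in combination tumors, Birc3 0.65 and Aim2 0.73, while Pmaip1 lies at -0.84.

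The second experiment gives levels of the same 10 genes in libraries that did not serve to select them. Letter D was compared with letter A in 10 libraries, where limma called 1.05% of 15096 genes in either direction and none of the 10. An unadjusted p below 0.05 was found for 3066 genes and 3 members. There edgeR called none of the 10 and DESeq2 called 4 higher (Ripk3, Zbp1, Casp1 and Casp4), where DESeq2 called 1288 of 15391 genes higher and 502 lower. Letter C against A called 0.279% of genes and none of the 10, with 2452 genes and 2 members at an unadjusted p below 0.05. Letter B against A called 0% and none, with 1105 genes and 0 members, and the interaction of the letters called 0% and none, with 285 genes and 0 members. DESeq2 called 241 genes in letter B against A and 1 in the interaction of the letters, and edgeR called 0 in both.

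Ripk3 stood at 112, 139, 252, 165 and 222 normalized counts in the 5 letter A libraries and at 223, 386, 1454, 314 and 226 in the 5 letter D libraries. The groups overlapped at their edges, and replicate 3 of letter D lay far above the rest. The difference was 1.18 (SE 0.49, limma adjusted p = 0.216), and without that replicate it was 0.71 (SE 0.27, adjusted p = 0.117). Casp4 stood at 188, 225, 510.3, 207 and 297 in letter A and at 474, 450.3, 479.7, 487 and 689.9 in letter D. All letter D libraries but 1 lay below the highest letter A library and above its other 4, with a difference of 0.94 (SE 0.29, adjusted p = 0.135). Casp1 differed by 0.93 (SE 0.32, adjusted p = 0.162), and its letter D values, from 536 to 1314, overlapped those of letter A, from 244 to 546. Zbp1 differed by 1.02 (SE 0.47, adjusted p = 0.248), and replicate 3 of letters C and D, which stood apart, held 18778 and 18574 normalized counts where letter A ran from 2329 to 4457. Gsdmd differed by 0.79 (SE 0.37, adjusted p = 0.251) and Fadd by 0.27. Without letter D replicate 3 these were 0.43 (SE 0.18, adjusted p = 0.15) for Gsdmd and -0.09 for Fadd, whose direction turned, and the Zbp1 difference was 0.62. Casp8 differed by 0.32, and Ripk1 (0.00), Mlkl (-0.05) and Nlrp3 (-0.19) had fitted differences near or below 0, with limma adjusted p-values from 0.313 to 0.994 over these and Fadd. Nlrp3 stood at a median of 133 in letter D and 218 in letter A, the reverse order of the combination and untreated tumors.

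In letter C Ripk3 stood at 239.5, 281, 639.7, 360.0 and 217 and differed from letter A by 0.90 (SE 0.32, limma adjusted p = 0.22). In letter B it stood at 315, 158, 308, 233 and 223 and differed by 0.49 (SE 0.26, adjusted p = 0.613). Of the 5 libraries of each of these letters 3 and 2 lay above every letter A library.

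With the 3 libraries that stood apart left out, an alternative chosen after seeing the data, none of the 10 was called between letters D and A, and the difference was 0.81 (SE 0.29, limma adjusted p = 0.0985) for Ripk3, 0.82 (SE 0.30, adjusted p = 0.0999) for Casp4 and 0.34 (SE 0.30, adjusted p = 0.466) for Zbp1. Summed macrophage markers stood at 210717 in letter C replicate 3 and 480794 in letter D replicate 3, where letter A ran from 26549 to 51934, and their part in the result was not tested. Letter D replicate 5, the other library that stood apart, held 48616, within the letter A range. Ptprc did not rise with the macrophage sums, at 1766 in letter C replicate 3 and 1012 in letter D replicate 3, where letter A ran from 1191 to 3878. Letter D replicate 3 also had the highest epithelial sum, 35051 against 7474 to 10108 in letter A, on the fewest recovered reads, 8716257. The reason was not tested. Other marker sums differed between all of letters D and A. Keratinocyte markers summed to 2228 to 34171 in letter D and 302 to 1771 in letter A, and B cell markers to 376 to 2686 and 49.1 to 92.6, both with no overlap. Fibroblast markers summed to 56205 to 247300 in letter D and 23466 to 61874 in letter A, with overlap, and T cell markers to 1867 to 10834 and 868 to 2166. Neutrophil markers summed to 672 to 3640 in letter D and 224 to 1154 in letter A, also with overlap. The part of these in the differences of Ripk3, Casp4, Casp1 and the other genes between the letters was not tested. The interaction of the letters for Ripk3 was -0.21 (SE 0.60, adjusted p = 0.999). Of the list genes 0 were called in the 4 comparisons of letters with limma, and DESeq2 called 8, 4, 2 and 0 in the order D, C and B against A and interaction. Over all genes DESeq2 called 1790 of 15391, 838 of 15264, 241 of 15326 and 1 of 16595 in that order.

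**Figure D5:**
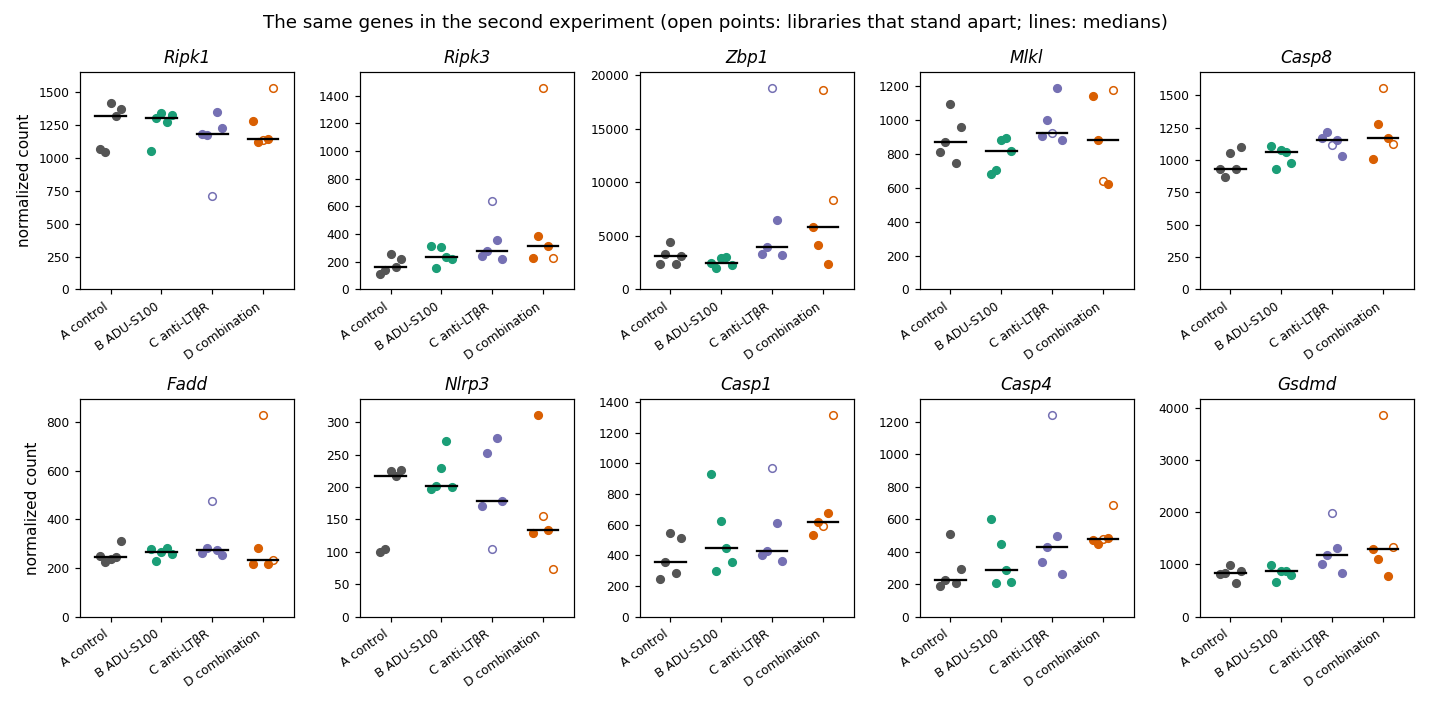
Normalized counts of the 10 genes in the 20 libraries of the second experiment, 1 panel per gene, with the 4 letters on the horizontal axis, 1 point per library, open points for the 3 libraries that stood apart, a line at the median and each vertical axis starting at 0. The treatment beside each letter is that of the sample descriptions, which the treatment field contradicts. Open points hold the highest values for Ripk3 (1454), Zbp1 (18778), Fadd (827), Gsdmd (3853), Casp1 (1314) and Casp4 (1242).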

How the data were processed

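Bulk RNA-seq libraries of 52 tumors were made with a stranded mRNA kit. The submitters' processing notes name cutadapt 1.9, FastQC, HISAT2, StringTie, STAR, Partek, DESeq2, edgeR and the build mm39. The study's methods give cutadapt, HISAT2, StringTie and DESeq2 for the mouse tumors, while the name under which the 32-tumor table was deposited points to Partek, so which steps made that table could not be settled. Whether counting used strand is not given in the sources used here. The deposited values are normalized counts (a signal), that is, reads divided by 1 size factor per library by the authors. Positions printed are those of GRCm38 and were used for location only.

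Whole reads were recovered from the steps between low values, and 100% of values came out whole within 0.1, although the step was too near 1 to tell in 9 libraries. The main test was limma 3.58.1 (R 4.3.3) with trend on log2(normalized count + 1) after a minimum count of 10, two-sided, with Benjamini-Hochberg adjustment over all genes tested at 0.05. A pair comparison used its own 16 or 10 libraries, and an interaction used all 32 or 20. edgeR 4.0.16 and DESeq2 1.42.0 were run on recovered reads as alternatives. Leaving out combination tumor 5 or the 3 libraries that stood apart was chosen after seeing the data. P-values measure the spread between these tumors. The sample labels used here do not give the mouse of each tumor, and the fits take the tumors as independent.

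The 10 genes and all gene and marker lists were chosen with earlier results of these data known. All 10 genes are named, and of each list the 3 called genes with the smallest adjusted p in each direction between combination and untreated tumors and the 2 in each direction for the interaction. The scripts were tested on simulated data. Some list genes that this rule names are not reported here.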

Additional observations from a re-analysis of the deposited data

Results flagged for a closer look

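The fitted effect of ADU-S100 was larger in tumors that also received anti-LTβR than in those that did not for Ripk3 (by 0.93, log2) and Casp8 (by 0.27). The genes were chosen on these same values, so both are a description and not a test. Of 80 groups of 5 or 8 libraries checked, 12 held a library far from the rest by Dixon's test, which flags about 1 group in 20 by chance. In the first experiment these were ADU-S100 tumor 5 for Ripk1 (1395 normalized counts) and combination tumor 5 for Casp1 (632). In the second, letter D replicate 3 stood out for Ripk3 (1454), Fadd (827) and Gsdmd (3853), and letter D replicate 5 for Casp1 (1314) and Casp4 (689.9). Letter C replicate 3 stood out for Zbp1 (18778), Fadd (477), Casp4 (1242) and, on the low side, Ripk1 (713). Letter B replicate 1 was low for Ripk1 (1055).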

How the results depend on the processing

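In the first experiment no called value of the 10 genes, or of the list genes that the naming rule picks, changed its direction in any alternative run. The remaining list genes were not checked for this. In the second experiment limma called none of the 10, so there was no call that could turn, and the list genes were not checked there. Requiring at least a 2-fold change left 0 of the 10 genes in the 5 comparisons of the first experiment that called any. It left 1034, 173, 357, 1038 and 540 genes in all, and 1, 0, 0, 1 and 1 list genes, for combination and anti-LTβR against untreated, combination against anti-LTβR and against ADU-S100, and the interaction. Between anti-LTβR and untreated tumors 1 of the 10 was called with edgeR, with no filter, with the replicate block and in the libraries above 14000000 reads, each time without Casp4, and 1660 genes with the block and 1537 in those libraries. Those libraries gave 1 member (Ripk3, without Nlrp3), 1450 genes and 2 list genes for combination against anti-LTβR, and 1 member (Ripk3, without Casp8), 1568 genes and 4 list genes for the interaction. With no filter, or without combination tumor 5, the interaction called 1 member (Ripk3), and without that tumor combination against anti-LTβR called 12 list genes. For ADU-S100 against untreated, edgeR called 1 gene, DESeq2 57, the replicate block 2, libraries above 14000000 reads 7 and a joint fit 1. Casp1 between combination and untreated tumors was lost with no filter, the block, the joint fit, the deeper libraries and without tumor 5. The deeper libraries do not include combination tumor 5, so these 2 alternatives are not separate. In the second experiment DESeq2 called 1790, 838, 241 and 1 genes for D, C and B against A and the interaction of the letters, with 4 members in D and 8, 4 and 2 list genes. For D against A a pseudocount of 0.1 gave 60 genes and the block 41, and for C against A edgeR gave 20 and the block 4. Without the libraries that stood apart 1686, 351 and 2 genes were called for D, C and the interaction, with 6 and 2 list genes in D and C. Leaving out 1 replicate in turn gave 1 to 1405 genes and 0 to 7 list genes for D, 0 to 351 and 0 to 2 for C, and 0 to 1 genes for B. The highest counts came without letter D replicate 3 and letter C replicate 3, and the lowest for D without letter A replicate 2. The causes were not tested. The replicate numbers were not used as pairs in the main fits. Same-number correlations averaged -0.09 to 0.19, with single values up to 0.67, and each comparison held negative ones. At most 5 of 16 libraries of a pair comparison correlated best with their own number. Whether libraries of the same number share a cage or batch is not given in the labels used here and was not tested.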
